A study of Mus musculus with 23 samples.

Results

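The genes described here are 48 that drive or mark the mammalian cell division cycle: the cyclins with their kinases and inhibitors, the E2F and pocket protein switch, the replication machinery and the machinery of mitosis. They were chosen by gene symbol from a given list, and all 48 were found among the 24029 genes of the deposited table. RNA had been measured in 6 libraries from C3H10T1/2, a mouse mesenchymal stem cell line of strain C3H that can be turned into fat cells. The series is about TELP, a sensitive method for making sequencing libraries, and the values are RPKM, reads scaled by gene length and by the number of reads in the library, as the authors deposited them. The 17 chromatin immunoprecipitation samples among the 23 of the series were not analysed here.

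All cells were first seeded at 70% confluency and kept for 3 days with 8.3 nM BMP7, so the day 0 libraries come from BMP7-treated pre-adipocytes. Day 7 cells had then received 5 µM DEX and 0.5 mM IBMX up to day 2, with 0.12 µg/ml insulin, 1 µM Rosi and 1 nM T3 throughout. The standard libraries were prepared from oligo(dT)-selected mRNA with random hexamers. For TELP there is a library labelled N9 at each day, and day 7 also has libraries labelled N9_ss and T18, terms that the labels do not spell out. Each of the 6 groups is 1 library, no label ties the libraries to separate cultures, and no value below has a replicate error. In such bulk RNA, fewer cells of a type and less RNA per cell cannot be told apart.

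At day 0, 5 of 10 adipocyte markers reached 1 RPKM in each library type, and at day 7, 9 of 10 did in all 4 libraries. Their summed level was 44.4 and 13917 RPKM in the standard libraries, 35.4 and 32152 RPKM in TELP N9, 32695 in N9_ss and 5088 in T18, with Lep listed at 0 in all 6. The 8 pre-adipocyte and mesenchymal markers summed to 371 and 244 RPKM in the standard libraries and to 399 and 57.2 in TELP N9. Of the leukocyte markers 0 to 2 of 6 reached 1 RPKM in a library, of the endothelial ones 0 to 1 of 5, of the muscle ones 1 to 2 of 6 and of the bone and cartilage ones 2 to 3 of 8. Their sums were 0.944 to 6.19, 0 to 11.3, 1.67 to 36.6 and 4.82 to 94.7 RPKM, with Emr1 listed at 0 in all libraries but T18 and Tie1 and Ckm at 0 in all 6. The part of any marker list in the results below was not tested. Relative to standard day 0, sequencing depth estimated from the steps of low values was 0.985 for standard day 7, 1.57 for TELP N9 day 0, and 0.382, 0.4 and 0.331 for N9, N9_ss and T18 at day 7. The share of all RPKM taken by the top 10 genes was 7.56% at day 0 and 9.8% at day 7 by the standard procedure, 15.2% and 32.8% by TELP N9, 31.6% by N9_ss and 79.8% by T18.

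As background, a dividing cell passes from G1 into S phase when D-type cyclins and their kinases Cdk4 and Cdk6 inactivate the pocket proteins Rb1 and Rbl1, which frees E2F factors to switch on the genes of DNA replication. Cyclin A, cyclin B and Cdk1 then carry the cell into mitosis, and the CDK inhibitors hold these kinases back. In preadipocyte lines the hormone cocktail is known to trigger a short burst of divisions, called mitotic clonal expansion, before the cells leave the cycle for good and fill with fat.

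Differences are given on log2(RPKM + 1), a scale that makes the change of weakly expressed genes look smaller than it is. Only genes averaging 1 RPKM or more in the libraries under comparison were kept. A difference of 1 log2 unit or more counted as a call, higher or lower. In every list of 6 values below, the order is standard day 0, standard day 7, TELP N9 day 0, TELP N9 day 7, N9_ss day 7 and T18 day 7. T18 was called lower than N9 in 83.4% of all genes kept, so a T18 value below day 0 says little about a member.

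The first question was which of these genes differed between adipocytes and pre-adipocytes. In both library types, Cdkn2c and Rb1, which restrain entry into S phase, were called higher at day 7, and the D-type cyclin Ccnd1 and the kinase Plk2 were called lower. These were 2 of 47 kept members in each direction, against 7.23% of all genes called higher and 5.81% called lower in both. In the standard libraries 5 of 48 members were called higher, against a background of 8.22%, and 2 were called lower, against 6.53%. In TELP N9, 3 of 47 were called higher, against 13.9%, and 19 were called lower, against 29.9%. The median difference of the members was 0.33 in the standard libraries, where that of all genes kept was -0.18, and -0.83 in TELP N9, where that of all genes was -0.45. Of the 32 kept members that act in S phase or mitosis, 22 (68.8%) were above 0 in the standard libraries and below 0 in TELP N9. Over all roles, 26 of 47 members (55.3%) were above 0 in the standard libraries and below 0 in TELP N9, as were 10.2% of all genes. That share was 51.1%, 58.3% and 48.9% after median of ratios scaling, scaling to equal totals and quantile normalization, against 7.82%, 18% and 7.34% of all genes.

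The scale between libraries weighs on every TELP N9 difference. Median of ratios scaling, equal totals and quantile normalization put the median of all genes in TELP N9 at 0.03, -0.97 and -0.05, and the members then lay -0.42, -0.41 and -0.24 from it, against -0.38 as deposited. In the standard libraries the members lay 0.49, 0.54 and 0.55 above the median of all genes under these scalings, against 0.51 as deposited. Of all genes called in the standard libraries 55.7% were higher, and 66.1% after median of ratios scaling. Of those called in TELP N9 31.8% were higher as deposited, and 53.9%, 17.1% and 49.5% under the 3 scalings in that order. Of the 19 members called lower in TELP N9, 11 were still called after median of ratios scaling and 11 after quantile normalization, and all 19 with equal totals. Ccnd1, Cdk4, Cdk6, Cdkn1b, E2f1, Mcm3, Mcm4, Mcm6, Plk2 and Pola1 were called lower under each of them.

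**Figure D1:**
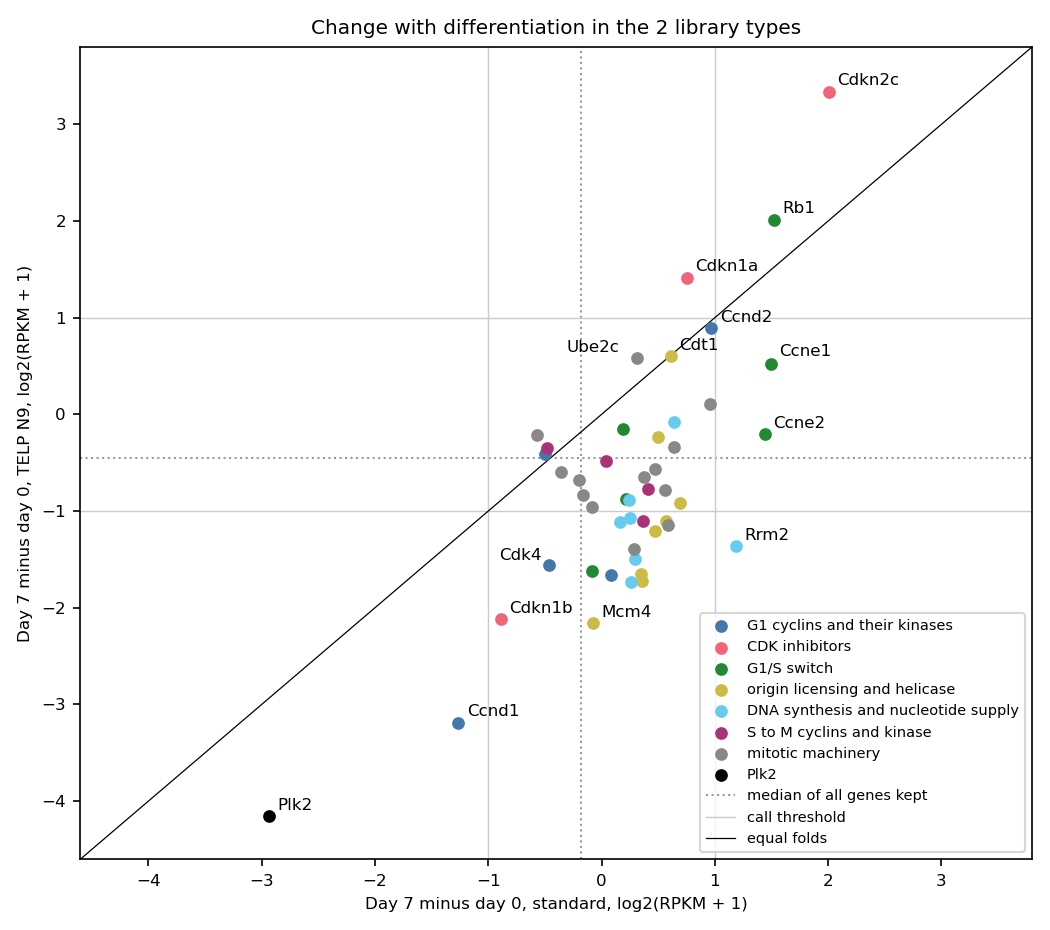
Difference between day 7 and day 0 on log2(RPKM + 1) for the 47 members kept in both comparisons, standard libraries on the x axis and TELP N9 on the y axis, 1 point per gene coloured by role; dotted lines are the medians of all genes and grey lines the call threshold of 1. Most replication and mitosis genes lie right of 0 and below 0, while Cdkn2c and Rb1 lie past the threshold at the upper right and Ccnd1 and Plk2 at the lower left.

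A limma fit over these 4 libraries, with day and library type as terms and 1 residual degree of freedom, called 0 members at a false discovery rate of 0.05. It called 82 of 11474 genes (0.715%) higher and 12 (0.105%) lower. At an unadjusted p below 0.05 it held 7 of 47 kept members, a smaller share than the 3014 of 11474 genes. The 7 were Ccnd1, Ccnd2, Cdkn1a, Cdkn1b, Cdkn2c, Rb1 and Plk2. The smallest adjusted p of a member in the limma fit was 0.0661, for Plk2. Since members passed less often than genes at large, the 7 names are a description and not a result about the members. The spread in that fit is between library types, not between cultures. Members whose differences parted between library types, as most S phase and mitosis members did, could hardly pass.

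Among the G1 cyclins and their kinases, which answer growth factors and start the cycle, the D-type cyclins parted company. Ccnd1 stood at 66.7 RPKM in the standard library of day 0 and 27.2 in that of day 7, at 85.5 and 8.49 in TELP N9, at 8.5 in N9_ss and at 3.8 in T18. Every day 7 library was below both day 0 libraries, and the log2 difference was -1.26 in the standard libraries and -3.19 in TELP N9. Ccnd2, a second D-type cyclin, went the other way, at 69.8 and 138 RPKM by the standard procedure, 82.2 and 153 in TELP N9, 149 in N9_ss and 24.7 in T18. Its differences of 0.97 and 0.89 lay just under the threshold, and they reached it after median of ratios scaling in both library types. Ccnd3, the third, was at 54.1, 37.9, 62.4, 46.6, 45.7 and 2.88 RPKM, with differences of -0.50 and -0.41, of which the second became 0.11 after median of ratios scaling. The ratio of Ccnd2 to Ccnd1 within a library, which a scaling factor per library cannot change, was 1.05 and 0.961 at day 0. At day 7 it was 5.06 in the standard library, 18 in N9, 17.5 in N9_ss and 6.51 in T18, so it was higher in all 4 day 7 libraries. For the standard and TELP N9 libraries this restates the differences given above. Ccnd3 to Ccnd1 did not follow throughout, at 0.811 and 0.729 at day 0 and 1.39, 5.49, 5.38 and 0.759 at day 7, where T18 sat among the day 0 values. N9 and T18 of the same day thus gave unlike ratios, and T18 has no day 0 library of its own type.

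The kinase partners of the D-type cyclins differed widely in level. Cdk4 was the most abundant member per length in both day 0 libraries, with 341, 248, 319, 108, 115 and 22.4 RPKM, and was called lower in TELP N9 (-1.55) but not in the standard libraries (-0.46). Cdk6 was at 2.33, 2.52, 4.69, 0.801 and 0.766 RPKM and listed at 0 in T18. Its difference was 0.08 in the standard libraries and -1.66 in TELP N9, where the day 7 level rests on an estimated 10 reads or more. As a group the 5 genes had medians of -0.46 and -1.55, with 1 and 3 called lower and 0 called higher. Of all genes, 6.53% and 29.9% were called lower.

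**Figure D2:**
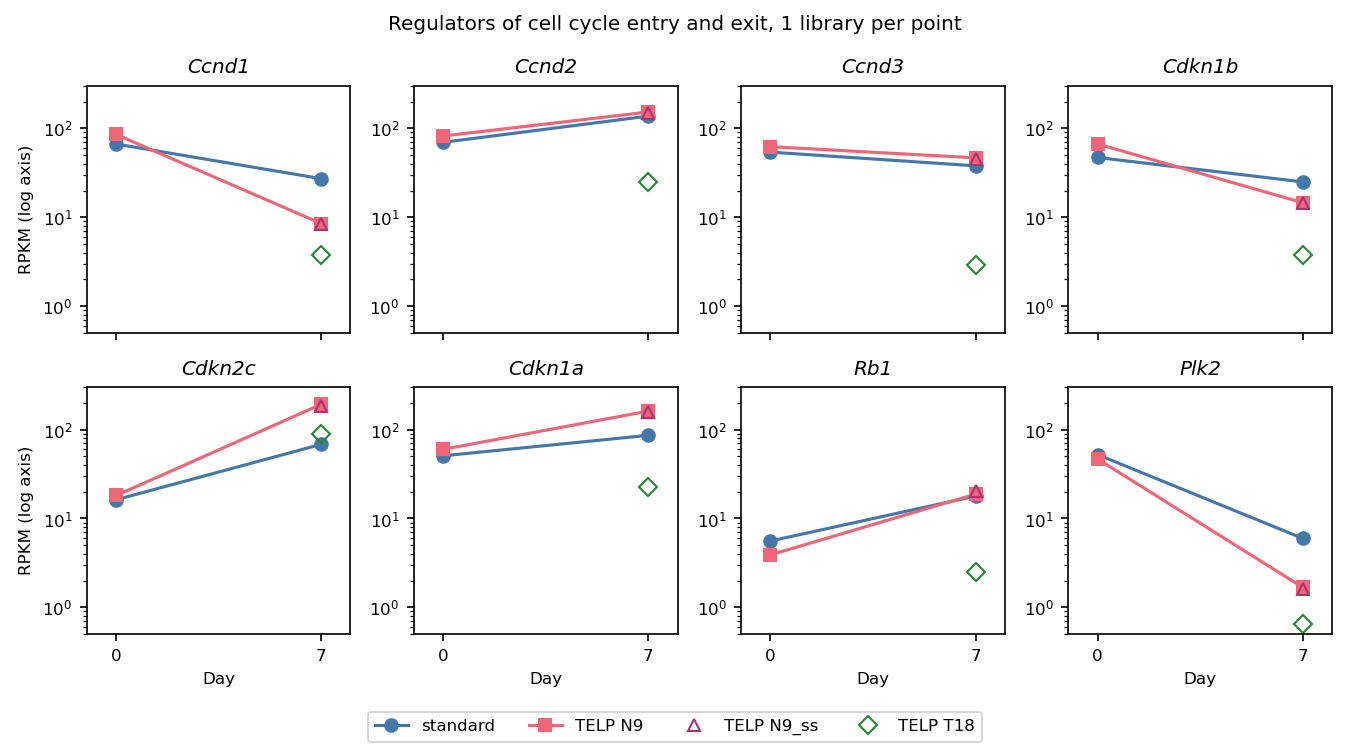
Level of 8 regulators in RPKM (log axis) at day 0 and day 7, 1 library per point, with lines joining the days of a library type. Ccnd1, Cdkn1b and Plk2 are lower and Ccnd2, Cdkn2c, Cdkn1a and Rb1 higher at day 7 in the standard and TELP N9 libraries, while T18 lies below N9 in all 8 panels.

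The 3 CDK inhibitors also split. Cdkn2c, the INK4-type inhibitor that binds Cdk4 and Cdk6 and is known to be induced as fat cells mature, measured 16.2 RPKM in the standard library of day 0 and 68.3 in that of day 7. In TELP it was at 18.1 in N9 day 0 and at 193, 185 and 89.2 in N9, N9_ss and T18 at day 7. All 4 day 7 libraries, T18 included, were above both day 0 libraries, and the differences of 2.01 and 3.34 were the highest of any member in each library type. Cdkn1a, a broad CDK inhibitor under p53 control, was at 50.7, 86.2, 60, 162, 156 and 22.6 RPKM, a difference of 0.75 in the standard libraries and 1.41 in TELP N9. T18 was the exception, below both day 0 libraries. Cdkn1b, the inhibitor of cyclin E and Cdk2 that is typical of quiescent cells, was at 47.1, 25, 66.7, 14.6, 14.7 and 3.72 RPKM. It was lower in every day 7 library than in both day 0 libraries, with differences of -0.89 in the standard libraries and, past the threshold, -2.12 in TELP N9.

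Ratios within a library, which do not depend on a scaling factor per library, give the inhibitors relative to each other. Effects of the library method on single genes do not cancel in them, and T18 has no day 0 library of its own type. Cdkn2c to Cdkn1b was 0.345 and 0.272 at day 0 and 2.73, 13.2, 12.6 and 24.0 in the day 7 libraries. Cdkn1a to Cdkn1b was 1.08 and 0.899 at day 0 and 3.45, 11.1, 10.6 and 6.09 at day 7. Cdkn2c to its target Cdk4 was 0.0475 and 0.0569 at day 0 and 0.276, 1.78, 1.6 and 3.98 at day 7. In each of these pairs every day 7 library lay above both day 0 libraries. For the standard and TELP N9 libraries this follows from the differences of the single genes, so it is no separate support. RPKM is per length of the gene model, so such ratios compare RNA levels and not proteins.

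Promoters of RefSeq genes, on build GRCm38.p6, were searched for letters known from cell cycle genes. That build is not the mm9 of the deposited table and was used for sequence only. The letters were TTTCCCGC, TTTGGCGC, TTTGCCGC and TTTCGCGC for E2F, TTTGAA for the cell cycle homology region (CHR) of mitotic genes, and CCAAT, each on both strands and overlaps allowed, over 250 bases before and 50 bases after each start. The letters before Cdkn2c are printed because it is the member with the highest difference. The 250 bases before each of its starts, on the minus strand at chr4:109666757-109667006 and chr4:109665373-109665622, held none of these letters, which capitals would mark. A CCAAT lay 7 bases past the downstream start, beyond the printed letters but within the bases searched.
Cdkn2c upstream start: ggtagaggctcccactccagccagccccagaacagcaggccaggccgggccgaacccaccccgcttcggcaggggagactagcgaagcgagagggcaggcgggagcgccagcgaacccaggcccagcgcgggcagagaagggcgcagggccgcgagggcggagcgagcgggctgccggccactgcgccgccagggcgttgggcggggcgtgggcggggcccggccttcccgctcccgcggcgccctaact
Cdkn2c downstream start: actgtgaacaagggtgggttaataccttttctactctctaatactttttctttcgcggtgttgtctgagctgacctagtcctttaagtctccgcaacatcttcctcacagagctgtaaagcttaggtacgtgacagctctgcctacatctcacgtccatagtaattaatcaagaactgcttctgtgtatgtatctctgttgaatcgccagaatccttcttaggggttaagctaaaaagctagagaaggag

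At the G1/S switch, where cyclin E and Cdk2 complete what cyclin D began, 3 of 6 genes were called higher in the standard libraries. In TELP N9, 1 was called higher and 1 lower, and the medians were 0.83 and -0.18. Of all genes, 8.22% were called higher in the standard libraries, and 13.9% higher and 29.9% lower in TELP N9. Rb1, the pocket protein that holds E2F in check, was at 5.57 and 17.9 RPKM by the standard procedure, 3.89 and 18.8 in TELP N9, 20.6 in N9_ss and 2.47 in T18. Its differences were 1.52 and 2.01, and T18 alone among the day 7 libraries lay below day 0. Rbl1, its relative p107, was at 3.68, 4.42, 3.81, 1.63, 1.59 and 0.314 RPKM, with differences of 0.21 and -0.87. Rb1 to Rbl1 was 1.52 and 1.02 at day 0 and 4.04, 11.5, 12.9 and 7.86 at day 7, higher in all 4 day 7 libraries. E2f1, an E2F factor that Rb1 restrains, was at 12.5, 11.8, 15.1, 4.23, 4.32 and 0.842 RPKM, level in the standard libraries (-0.08) and called lower in TELP N9 (-1.62).

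The E-type cyclins were called higher in the standard libraries and not in TELP N9. Ccne1 was at 2.06, 7.64, 2.87, 4.56, 4.65 and 1.2 RPKM, with differences of 1.5 and 0.52. Ccne2 was at 2.26, 7.86, 2.68, 2.18, 2.63 and 0.83 RPKM, with differences of 1.44 and -0.21, the latter above 0 after median of ratios scaling (0.15) and quantile normalization (0.38). Cdk2, their kinase, stayed within 11.7 to 15.3 RPKM outside T18 (1.91), at 13.2 and 15.3 in the standard libraries, 13.4 and 12 in TELP N9 and 11.7 in N9_ss. Its differences were 0.19 and -0.15, the latter above 0 after median of ratios scaling and quantile normalization.

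Origin licensing loads the replicative helicase, built of Mcm2 to Mcm7, onto DNA before S phase. In the standard libraries 0 of 9 licensing genes were called either way, with a median of 0.50. In TELP N9, 5 of 8 were called lower (62.5%), against 29.9% of all genes, with a median of -1.15. Mcm2 was at 9.05, 13, 6.84, 2.41, 2.36 and 0.596 RPKM. Mcm3 was at 13, 16.8, 9.97, 2.5, 2.78 and 0.782 RPKM, and Mcm4 at 18, 17.1, 15.6, 2.74, 2.87 and 1.55. Each of these helicase subunits was within 1.5-fold of its day 0 level in the standard library and under it by more in all 3 TELP libraries at day 7. Mcm5 was at 3.84, 6.82, 4.1, 1.69, 1.78 and 0.454 RPKM. Mcm6 was at 15.9, 20.6, 13.6, 3.43, 3.54 and 1.09 RPKM. Their differences in TELP N9 were -1.20 for Mcm2, -1.65 for Mcm3, -2.16 for Mcm4, -0.92 for Mcm5 and -1.72 for Mcm6, against 0.47, 0.35, -0.07, 0.69 and 0.36 in the standard libraries.

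Mcm7 stood apart from the other subunits of its complex. It was at 8.74, 12.8, 10.0, 8.36, 8.07 and 1.82 RPKM, with differences of 0.50 and -0.23, and the second was above 0 after median of ratios scaling (0.24) and quantile normalization (0.18). Mcm7 to Mcm2, a pair chosen after the values were seen, was 0.966 and 0.986 in the standard libraries, 1.46 in TELP N9 day 0 and 3.47, 3.43 and 3.05 in N9, N9_ss and T18 at day 7. The Mcm7 gene also holds the miRNA genes Mir25, Mir93 and Mir106b and overlaps Ap4m1 in RefSeq, and strand handling is not given in the sources used here, so reads of Mcm7 and of these genes may be shared.

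Of the remaining licensing genes, Gins2, a subunit of the GINS complex that activates the helicase, was at 5.45, 8.58, 9.36, 3.83, 3.66 and 1.76 RPKM, with differences of 0.57 and -1.10. Cdc6, which loads the helicase, was the least abundant member, at 0.738, 1.95, 1.03, 0.208, 0.199 and 0.0969 RPKM. It passed the filter in the standard libraries (0.77) and not in TELP N9, where its day 7 level rests on an estimated 2 reads or more. Cdt1, its partner in loading, was at 1.96, 3.51, 1.82, 3.29, 3.32 and 0.106 RPKM. It was the licensing gene with nearly equal differences in both library types, 0.61 and 0.60.

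The Mcm5 and Mcm6 promoters are printed because they hold at least 2 matches to the E2F letters before the start, overlaps counted. Capitals mark E2F and CCAAT matches in the 250 bases before the start, on the plus strand at chr8:75109259-75109508 for Mcm5 and the minus strand at chr1:128359706-128359955 for Mcm6 (GRCm38.p6). In both genes a pair of E2F words overlap, so the E2F matches of Mcm5 lie in a single stretch.
Mcm5: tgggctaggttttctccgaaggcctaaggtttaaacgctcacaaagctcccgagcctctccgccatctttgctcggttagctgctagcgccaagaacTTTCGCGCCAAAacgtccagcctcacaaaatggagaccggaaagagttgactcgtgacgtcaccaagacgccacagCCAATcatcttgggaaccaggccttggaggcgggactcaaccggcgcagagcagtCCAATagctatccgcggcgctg
Mcm6: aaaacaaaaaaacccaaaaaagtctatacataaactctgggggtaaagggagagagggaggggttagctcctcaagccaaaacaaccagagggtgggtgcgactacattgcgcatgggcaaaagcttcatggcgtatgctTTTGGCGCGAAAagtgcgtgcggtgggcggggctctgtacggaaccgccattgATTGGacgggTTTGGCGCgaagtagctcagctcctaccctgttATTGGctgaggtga

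DNA synthesis and nucleotide supply gave the most uniform split between library types. All 7 genes were above 0 in the standard libraries and below 0 in TELP N9, although Tk1 was above 0 in TELP N9 after median of ratios scaling (0.36) and quantile normalization (0.43). The medians were 0.26 and -1.12. In the standard libraries 1 gene was called higher (14.3%), against 8.22% of all genes. In TELP N9, 5 were called lower (71.4%), against 29.9%. Rrm2, the regulated small subunit of ribonucleotide reductase, measured 9.27 RPKM in the standard library of day 0 and 22.4 in that of day 7, at 9.35 and 3.03 in TELP N9, at 3.95 in N9_ss and at 1.49 in T18. The day 0 libraries nearly coincided, while standard day 7 lay above them and all 3 TELP libraries at day 7 below. Rrm2 was the only member called in opposite directions, 1.19 and -1.36; of all genes 0.148% were called higher in the standard libraries and lower in TELP N9, and 0.0697% the reverse. After median of ratios scaling or quantile normalization the TELP N9 difference was -0.87 or -0.81 and no longer a call. Its TELP N9 level at day 7 rests on an estimated 33 reads or more, which gives a counting error of at most about 17.4%.

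Rrm1, the large subunit, was at 16.1, 19.2, 13.5, 6.84, 7.18 and 2.16 RPKM, with differences of 0.25 and -0.89. Pcna, the sliding clamp of the polymerases and the most abundant replication gene, was at 46.6, 52.3, 63.7, 28.9, 27.9 and 9.33 RPKM, with differences of 0.16 and -1.11. Pola1, the catalytic subunit of polymerase alpha, was at 3.64, 4.58, 3.37, 0.318, 0.304 and 0.652 RPKM. Its differences were 0.26 and -1.73, and its level in TELP N9 day 7 rests on an estimated 4 reads or more. Prim1, the primase that works with it, was at 11.1, 13.8, 9.56, 2.73, 3.0 and 0.631 RPKM, with differences of 0.30 and -1.5. Tyms, which makes thymidylate, was at 3.62, 4.5, 4.07, 1.41, 1.4 and 1.11 RPKM, with differences of 0.25 and -1.07, and reads could be shared with the pseudogene Tyms-ps, which is also in the table. Tk1, the salvage kinase for thymidine, was at 5.7, 9.45, 6.15, 5.77, 5.51 and 3.15 RPKM, with differences of 0.64 and -0.08.

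**Figure D3:**
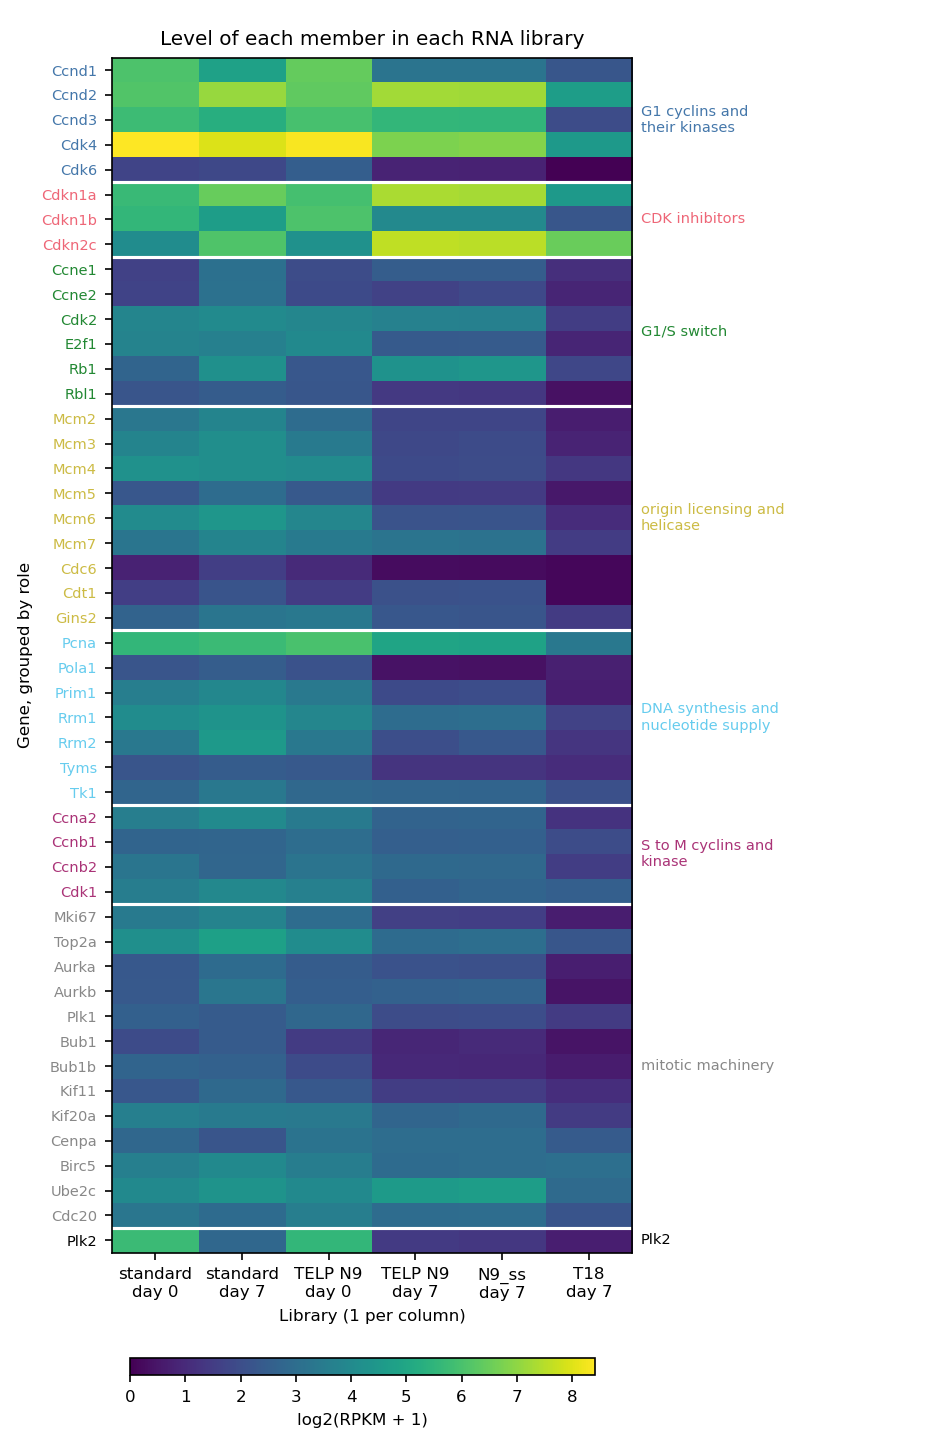
Level of all 48 members as log2(RPKM + 1) in each of the 6 libraries, 1 library per column and genes grouped by role. The 2 day 0 columns and the standard day 7 column look alike for replication genes, the N9 and N9_ss columns are darker for them, and the T18 column is darkest.

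The cyclins and the kinase that run from S phase into mitosis moved less. Their medians were 0.20 in the standard libraries and -0.63 in TELP N9. In TELP N9, 1 of 4, Cdk1, was called lower, against 29.9% of all genes. Cdk1, the kinase of mitotic entry, was at 11.0, 14.4, 11.7, 4.92, 5.55 and 4.82 RPKM, with differences of 0.36 and -1.10, and T18 was close to N9. Ccna2, cyclin A, was at 11.2, 15.2, 9.83, 5.34, 5.56 and 1.34 RPKM, with differences of 0.41 and -0.77. Ccnb1 and Ccnb2, the B-type cyclins, kept closer levels. Ccnb1 was at 5.56, 5.74, 7.1, 4.81, 4.93 and 2.88 RPKM, with differences of 0.04 and -0.48, the latter 0.04 after quantile normalization. Ccnb2 was at 8.62, 5.9, 8.41, 6.38, 6.23 and 1.88 RPKM, with differences of -0.48 and -0.35, and was above 0 in TELP N9 after median of ratios scaling (0.11) and quantile normalization (0.13).

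The promoters of Ccnb2 and Cdk1 show the arrangement of CCAAT and CHR letters that was common among the mitotic members, and Cdk1 was the only member that also held an E2F word. Both lie on the minus strand of GRCm38.p6, at chr9:70421555-70421804 and chr10:69352913-69353162, and capitals mark the matches in the 250 bases before the start (ATTGG is CCAAT read on the other strand).
Ccnb2: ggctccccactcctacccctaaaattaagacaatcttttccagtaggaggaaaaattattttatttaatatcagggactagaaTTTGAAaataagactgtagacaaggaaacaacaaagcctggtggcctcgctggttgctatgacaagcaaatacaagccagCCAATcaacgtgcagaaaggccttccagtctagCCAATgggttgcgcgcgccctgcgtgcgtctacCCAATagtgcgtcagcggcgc
Cdk1: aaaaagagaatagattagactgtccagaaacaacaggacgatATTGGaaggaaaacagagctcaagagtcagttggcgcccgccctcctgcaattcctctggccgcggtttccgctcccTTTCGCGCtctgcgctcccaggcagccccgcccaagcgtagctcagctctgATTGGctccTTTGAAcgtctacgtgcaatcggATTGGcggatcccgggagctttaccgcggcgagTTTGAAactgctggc

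Among the 13 genes of the mitotic machinery, 0 were called in the standard libraries, where their median was 0.31. In TELP N9 the median was -0.65, and Mki67 and Top2a were called lower (15.4% of the group, against 29.9% of all genes). Mki67, the proliferation antigen Ki-67, was at 10.1, 12.5, 6.91, 2.0, 1.93 and 0.606 RPKM, with differences of 0.28 and -1.40. Top2a, the topoisomerase that untangles sister chromatids, was at 17.4, 26.6, 16.0, 6.7, 7.2 and 3.72 RPKM, with differences of 0.58 and -1.14. Both were higher in the standard day 7 library than at day 0 and lower in each TELP library at day 7.

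The mitotic kinases differed among themselves. Aurka, the centrosomal Aurora kinase, was at 3.94, 6.68, 4.46, 3.32, 3.18 and 0.619 RPKM, with differences of 0.64 and -0.34, the latter above 0 after median of ratios scaling (0.08) and quantile normalization (0.23). Aurkb, the Aurora kinase of the chromosomal passenger complex, was at 4.12, 8.92, 4.73, 5.18, 5.44 and 0.359 RPKM. Its differences were 0.96 and 0.11, and the second was -0.35 with equal totals. Plk1, the polo-like kinase of mitosis, was at 4.97, 4.34, 5.96, 2.91, 2.95 and 1.78 RPKM, with differences of -0.16 and -0.83. Bub1, a spindle checkpoint kinase, was at 2.82, 4.32, 1.78, 0.879, 1.01 and 0.355 RPKM, with differences of 0.48 and -0.57. Bub1b, the related checkpoint protein, was at 5.55, 5.17, 2.76, 0.943, 0.901 and 0.545 RPKM, with differences of -0.09 and -0.95. It already differed between library types at day 0, by -0.80, the largest such difference of any member.

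The remaining mitotic genes act on spindles, centromeres and protein destruction. Kif11, the kinesin that keeps spindle poles apart, was at 3.93, 6.28, 3.97, 1.89, 1.8 and 1.14 RPKM, with differences of 0.56 and -0.78. Kif20a, a kinesin of cytokinesis, was at 11.5, 9.9, 9.7, 5.68, 6.27 and 1.74 RPKM, with differences of -0.20 and -0.68. Cenpa, the centromeric histone, was at 5.96, 3.68, 8.3, 7.01, 7.09 and 4.36 RPKM. It was lower at day 7 in the standard libraries (-0.57) and in TELP N9 (-0.22), the latter 0.25 after median of ratios scaling and after quantile normalization. Birc5, the passenger protein survivin, was at 11.5, 15.1, 11.0, 6.61, 7.0 and 7.37 RPKM, with differences of 0.37 and -0.65, and was the only one of the 42 members kept in that comparison to be higher in T18 than in N9. Ube2c, the ubiquitin-conjugating enzyme of the anaphase-promoting complex, was at 15.0, 18.9, 14.9, 22.8, 24.6 and 6.5 RPKM. It was above 0 in both library types, 0.31 and 0.58, though not past the threshold. Cdc20, the activator of that complex, was at 8.92, 6.73, 11.0, 6.94, 7.07 and 3.58 RPKM, with differences of -0.36 and -0.60, below 0 in both.

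Plk2, a polo-like kinase known to be induced by serum and by p53, had the lowest difference of all members. It measured 52.3 RPKM in the standard library of day 0 and 5.97 in that of day 7, at 46.6 and 1.68 in TELP N9, at 1.6 in N9_ss and at 0.646 in T18. The day 0 libraries were close to each other, and every day 7 library lay far below both. The differences were -2.93 in the standard libraries and -4.15 in TELP N9. Estimated reads numbered at least 489 and 55 by the standard procedure and at least 686 and 6 by TELP N9. The counting error of the TELP N9 level at day 7 is therefore at most about 40.8%. Plk1 to Plk2 was 0.095 and 0.128 at day 0 and 0.726, 1.73, 1.84 and 2.76 at day 7. The letters before its start, on the plus strand of GRCm38.p6 at chr13:110394794-110395043, are shown because Plk2 had the lowest difference, and they hold none of the 3 motifs.
Plk2: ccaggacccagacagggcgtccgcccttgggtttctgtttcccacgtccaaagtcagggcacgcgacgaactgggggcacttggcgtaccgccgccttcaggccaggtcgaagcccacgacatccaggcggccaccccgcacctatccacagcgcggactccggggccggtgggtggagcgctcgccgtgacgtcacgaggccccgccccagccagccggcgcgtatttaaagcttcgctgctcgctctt

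Across the 39 members with a RefSeq promoter in the table used, the motif letters were spread unevenly over the role groups. E2F words were present in 6 of 7 licensing genes (85.7%), against 2.6% of 27025 genes with a promoter and 4.94% of 8422 such genes kept in the standard libraries. CHR and CCAAT together were present in 9 of 11 genes of the mitotic machinery (81.8%), against 8.97% of all and 6.9% of those kept. Of the 11 G1, inhibitor, G1/S and Plk2 members, 0 held CHR letters and 2 held E2F words. Of the 7 synthesis genes, 1 (Pola1) held an E2F word and 5 held CCAAT. A match is a description of letters, not a binding site. No promoter was given for Gins2, Ccnd1, Ccne2, Kif20a, Mcm4, Rb1, Ccnd2, Ccna2 and Aurkb.

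**Figure D4:**
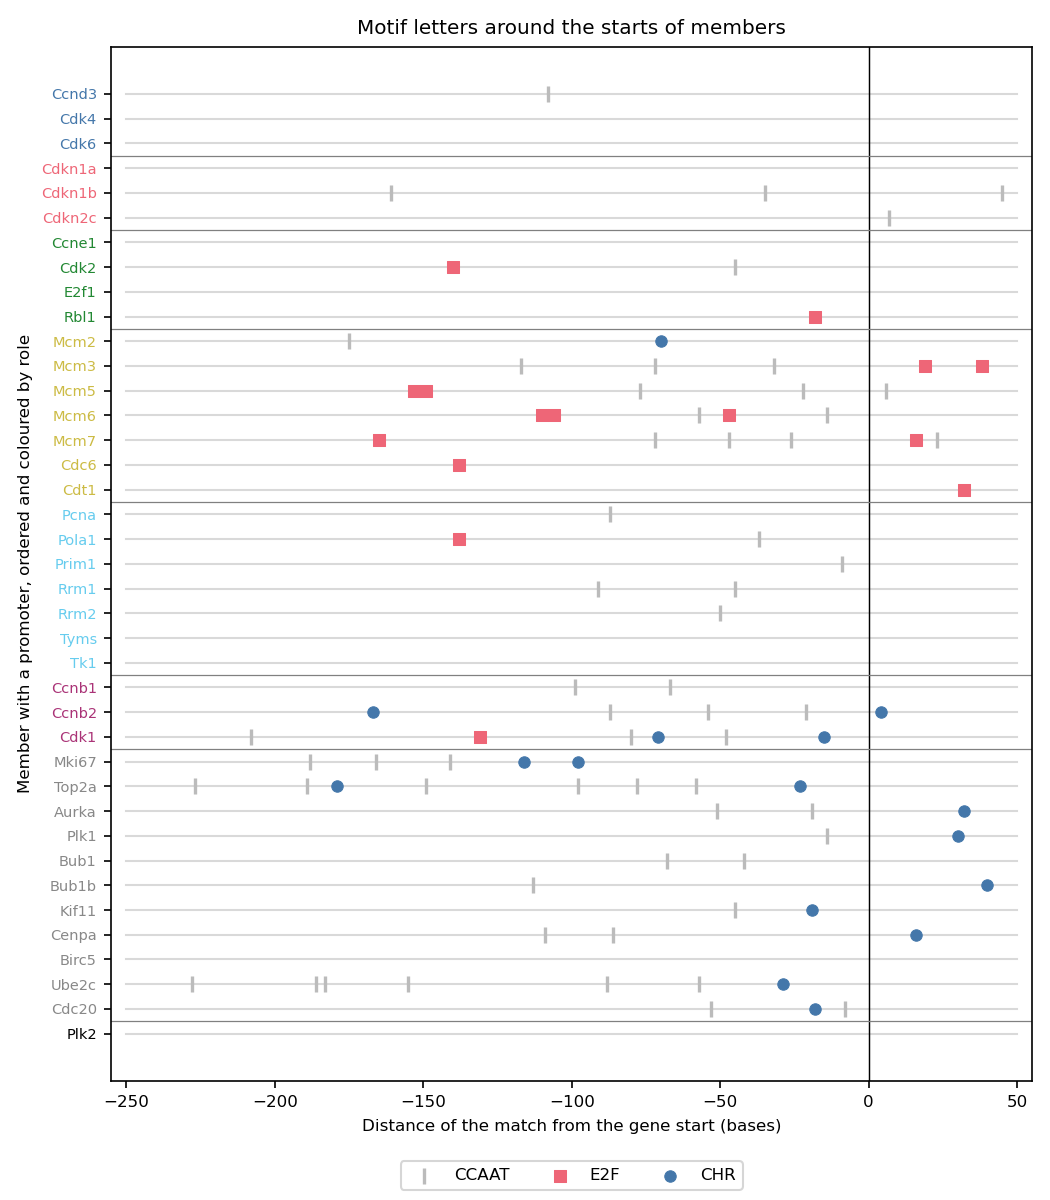
Position of E2F, CHR and CCAAT letters from 250 bases before to 50 bases after the start (x axis, bases) for the 39 members with a promoter, 1 line per gene and coloured by role. E2F squares gather in the licensing genes, and CHR circles in the S to M cyclins and mitotic machinery.

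Genes of the same pathways outside the list were counted for comparison. Of 44 other replication genes, 43 were kept in the standard libraries. There 2 were called higher (4.65%) and 0 lower, against 8.22% and 6.53% of all genes. In TELP N9, 0 of 39 kept were called higher and 10 lower (25.6%), against 13.9% and 29.9% of all genes. The medians were 0.35 and -0.74. Those called higher in the standard libraries were Cdc45, a helicase cofactor, at 1.865 and 6.402 RPKM, and Chaf1b, a histone chaperone subunit, at 2.965 and 7.339 RPKM. Neither was called in TELP N9, with Cdc45 at 1.638 and 2.093 RPKM (0.23) and Chaf1b at 2.608 and 1.062 RPKM (-0.81). Of 57 other mitosis genes, 0 were called in the standard libraries. In TELP N9, 20 of 53 kept were called lower (37.7%), against 29.9% of all genes. The medians were 0.23 and -0.70. In both lists 0 genes were called the same way in both library types, against 7.23% of all genes called higher and 5.81% lower. Among 26 other G1 and pocket protein genes the medians were 0.02 and -0.47, and Pkmyt1, a kinase that inhibits Cdk1, was called higher in both, with 2.58 and 9.113 RPKM by the standard procedure and 3.541 and 22.9 by TELP N9. Of 5 other CDK inhibitors, Cdkn2b, another INK4-type inhibitor, was called lower in both, with 17.46 and 6.992 RPKM by the standard procedure and 30.16 and 12.21 by TELP N9. Of 20 other p53 targets, Plk3, a further polo-like kinase, was called higher in both, opposite to Plk2. It was at 3.627 and 12.05 RPKM by the standard procedure and 3.203 and 27.86 by TELP N9. The list's medians were -0.12 and -0.20. Of its 19 kept genes, 2 were called higher (10.5%) and 1 lower (5.26%) in the standard libraries. In TELP N9, 3 were called higher (15.8%) and 6 lower (31.6%), against 13.9% and 29.9% of all genes. Pkmyt1, Cdkn2b and Plk3 were 1 of 25, 1 of 4 and 1 of 19 kept genes of their lists. Of all genes, 7.23% were called higher and 5.81% lower in both.

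The second question was how far the members' levels differed between the library types on the same day. At day 0, 0 of 47 kept members were called between TELP N9 and the standard library, against 2.2% of all genes called higher and 0.718% lower. The median was 0.04 and the range -0.80 to 0.77. At day 7, 1 of 48 was called higher (Cdkn2c), against 7.51%, and 25 were called lower, against 17.0%, and the median was -1.06 where that of all genes was -0.23. Mcm2 to Mcm7 had a median of -2.15 at day 7, with 5 of 6 called lower. The day 7 libraries differed in depth, and TELP N9 day 7 had more of its total in 10 genes, at 32.8% against 9.8%. Cell type markers differed too. The mesenchymal ones summed to 57.2 RPKM in TELP N9 and 244 in the standard library, and the adipocyte ones to 32152 and 13917. Whether both libraries came from the same culture is not given, so method and cells cannot be told apart. The part of each in the result was not tested.

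**Figure D5:**
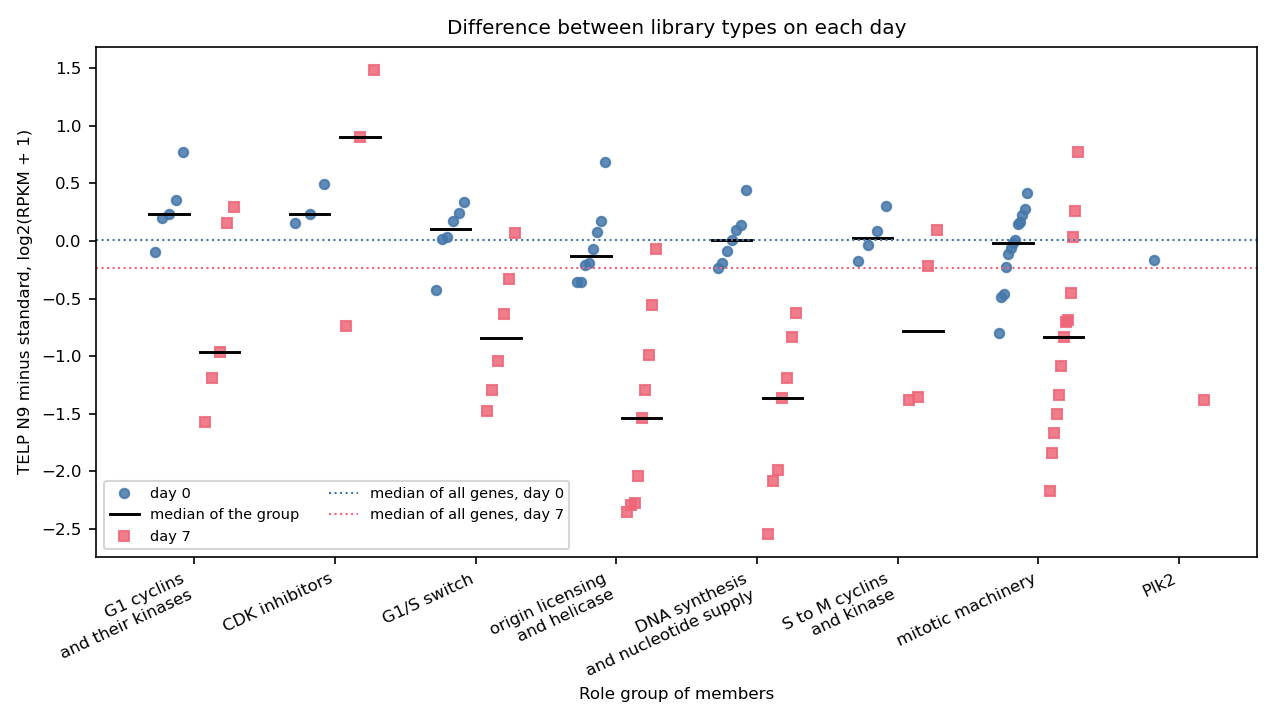
TELP N9 minus standard on log2(RPKM + 1) at day 0 (circles) and day 7 (squares) for each member, grouped by role, with the median of each group as a bar and those of all genes as dotted lines. Day 0 values lie between -0.80 and 0.77, whereas the day 7 values of licensing and synthesis genes all lie below 0.

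The difference of folds, TELP N9 minus standard, draws on the same 4 libraries. Its median over the 47 members was -1.09, against -0.27 over all genes, and it ranged from -2.55 for Rrm2 to 1.33 for Cdkn2c. It was -1 or lower in 27 members, against 17.2% of all genes, and 1 or higher only in Cdkn2c, against 5.99%. By role its median was -1.68 for licensing, -1.32 for synthesis, -0.85 for the S to M cyclins and Cdk1, -0.87 for the mitotic machinery and 0.66 for the CDK inhibitors. After median of ratios scaling it was -1 or lower in 34.0% of members, against 10.0% of all genes. With 1 library per group the difference could not be tested.

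The third comparison set the other TELP libraries of day 7 beside N9. Between N9_ss and N9, 0 of 43 kept members were called, against 0.0194% of all genes called higher and 0.00968% lower, and the range was -0.06 to 0.30, with Rrm2 at the top. Estimated reads were equal in N9 and N9_ss for some members, at 6 for Plk2, 10 for Cdk6 and 36 for Tk1. They differed for others, such as 33 and 45 for Rrm2. The pair may share a library or reads, which was not tested. Between T18 and N9, 23 of 42 kept members were called lower, against 83.4% of all genes, and 0 were called higher, against 0.841%. The members' median was -1.10 and that of all genes -1.77. T18 had 31 members at 1 RPKM or more, N9 had 43 and the standard day 7 library all 48. Of the members called in both library types, Cdkn2c lay above day 0 in T18, and Ccnd1, Plk2 and Rb1 lay below it. From TELP N9 day 0 to T18 the median of all genes was -2.11, so lying below day 0 there says little about a member. The comparisons of TELP N9 day 7 with day 0, with the standard library, with N9_ss and with T18 all share the N9 day 7 library.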

How the data were processed

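The authors deposited RPKM values for 24029 genes in 6 RNA libraries, 1 per group; Bowtie2, TopHat, Cufflinks and the mm9 build are named per the submitters' processing notes, but no source used here gives versions, settings, strand handling or read totals. Absolute depth is therefore unknown. Relative depth came from the steps of low values. Reads were estimated for 19 members from whole-number ratios between libraries (tolerance 0.002, up to 500 reads in standard day 0). The smallest numbers that met the tolerance were taken, so the true reads may be several times higher and the errors smaller. They are approximate, and the errors cover counting only.

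Differences of log2(RPKM + 1) were computed over genes averaging 1 RPKM or more and called at 1 log2 unit, in Python 3.11.15 with pandas 2.3.3. P-values come from limma 3.58.1 (R 4.3.3) alone. The calls by size were also tested on simulated data with counting noise only. That test does not cover differences in library type, depth or culture. The members and lists were chosen with earlier results of these data known. The gene pairs given as ratios were not among the planned results. All members are named; of other lists, up to 3 genes per direction called in both library types were to be named, and Cdc45 and Chaf1b were added after their values were seen. 14 members overlap another gene of the table by RefSeq span, and Tyms, Pcna, Ccnb1, Ccnb2 and Ccnd3 have pseudogenes, so their reads may be shared. Promoters and gene spans are RefSeq's, on GRCm38.p6. Alternatives were a pseudocount of 0.1 RPKM, no filter or a filter at 5 RPKM, 3 scalings, N9_ss or T18 as the day 7 library, and limma.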

Additional observations from a re-analysis of the deposited data

Results flagged for a closer look

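Rrm2, the small subunit of ribonucleotide reductase, was called higher at day 7 in the standard libraries (1.19) and lower in TELP N9 (-1.36), so the library types moved in opposite directions with a difference of folds of -2.55. With 1 library per group that difference was not tested.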

How the results depend on the processing

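No paired analysis was possible because each RNA group holds 1 library. Counts of members called in the standard libraries stayed within 1.5 times under all alternatives run. For TELP N9 between days, 19 members called lower became 11 after median of ratios scaling, 11 after quantile normalization, 31 with equal totals and 40 with T18 as the day 7 library, and 3 called higher became 5, 5, 2 and 1. Between library types at day 7, 25 lower became 16 with a filter at 5 RPKM, which keeps fewer genes, and 1 higher became 3, 2 and 0 after median of ratios scaling, quantile normalization and equal totals. At day 0, 0 lower became 1 with equal totals. Between T18 and N9, 23 lower became 11 with the filter at 5 RPKM and 3 after median of ratios scaling or quantile normalization, and 0 higher became 13 under both scalings. The median difference of folds of -1.09 was -1.7 with equal totals. Members called in both library types, 2 higher and 2 lower, were 0 and 0 by limma, and 1 was higher in both with T18. With T18 as the day 7 library the direction turned for Cdkn1a (-1.37) and Rb1 (-0.5), which were called as reported, and for Ccnd2 (-1.69), Ube2c (-1.08), Ccne1 (-0.82) and Aurkb (-2.08), which were not. The median of all genes with T18 as the day 7 library was -2.11. Of 1176 values of single members under an alternative, 1067 stayed within 0.585 log2 units, 107 moved further and 2 belonged to a called member that changed sign; sign changes of uncalled members are among the others. The cause of these changes was not tested. Alternatives for the calls in both library types were added after seeing the data. Shallow day 7 TELP libraries limit low members most, such as Cdc6, Pola1, Plk2 and Cdk6.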
